A study of Mus musculus with 8 samples.

Results

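The 43 oxidative phosphorylation genes examined here are nuclear genes for subunits of the respiratory chain and the ATP synthase. They comprise 21 genes of complex I, 4 of complex II, 7 of complex III with cytochrome c, 9 of complex IV and 2 of complex V. Each peak of the acetylation table was given to the gene whose curated transcription start lay closest to the centre of that peak. By this rule 64 of 45980 peaks on placed chromosomes belonged to 39 of the 43 genes. They were split into 9 peaks whose centre lay in the promoter window, which spans 1000 bp before and 100 bp after a start, and 55 other peaks. The table was made by ChIP-Seq for H3K27Ac, acetylation of lysine 27 on histone H3, a mark of active promoters and enhancers.

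Chromatin came from ventricles of mice at P7, postnatal day 7. The 2 H3K27Ac libraries of the Control group were from Arid1a f/f mice, with floxed alleles and no Cre. The 2 libraries of the Arid1a cKO group were from aMHC-Cre;Arid1a f/f mice, whose transgene drives Cre from the alpha myosin heavy chain promoter in cardiomyocytes. An input library went with each, for 8 libraries in all, and all mice carried floxed Arid1a on a C57B/6J background. Arid1a encodes a DNA-binding subunit of the SWI/SNF chromatin remodelling complex. The ventricle also holds fibroblasts, endothelial cells and blood cells, which keep the gene in this model. H3K27Ac at Arid1a does not report the floxed deletion and gives no check of the genotype labels.

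The files give 1 value per group and peak, the normalized read count averaged over the group's libraries and put on the log2 scale. All values below are therefore the authors' means, or the difference of the 2 means with Arid1a cKO minus control. The table has 0 columns of single samples, so the depth of each library and the spread between replicates are unknown. No difference can be set against replicate error and no test was made. Members are described by counts and medians beside the same values over all peaks of the class, and a peak counts as past the limit when the groups differ at least 2-fold. In bulk ventricle, fewer cells of a type and less acetylation per cell cannot be told apart.

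Oxidative phosphorylation passes electrons from NADH and succinate through complexes I to IV to oxygen. The pumped protons drive complex V, which makes ATP. Cardiomyocytes are packed with mitochondria and rely on this pathway for the ATP of contraction. Most subunits come from housekeeping promoters bound by factors such as NRF1, GABP of the ETS family and YY1. Nuclear receptors of the ERR family act with the PGC-1 coactivators on many of the same genes.

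Promoter sequences were available for 32 of the 43 genes, as 250 bp upstream to 50 bp downstream of a RefSeq start in GRCm38.p6, the assembly that mm10 stands for. Each was searched on both strands for CATGCGC (NRF1), CCGGAAG (ETS), AAGATGGC (YY1), AAGGTCA (ERR), GGGCGGG (SP) and the MEF2 motif. None of these letters contains another motif's, and a promoter counted once however many matches it held. The NRF1 letters stood in 7 of the 32 genes (21.9%), beside 3.91% of 32851 promoters and 6.72% of the 14277 promoters whose start lay inside an H3K27Ac peak. The genes were Cox5b, Cycs, Ndufa6, Ndufa8, Ndufb8, Sdhb and Uqcrc1. Below are 3 of them, chosen as carriers in cytochrome c, complex III and complex II. Capitals mark every motif match, here of NRF1 and, in Sdhb, also of ETS and SP. A match on the other strand appears as its complement read backwards, as with SP in Sdhb, and in Uqcrc1 the NRF1 letters overlap on both strands. The windows are chr6:50566520-50566819 on the minus strand, and chr9:108936398-108936697 and chr4:140961021-140961320 on the plus strand.
Cycs promoter: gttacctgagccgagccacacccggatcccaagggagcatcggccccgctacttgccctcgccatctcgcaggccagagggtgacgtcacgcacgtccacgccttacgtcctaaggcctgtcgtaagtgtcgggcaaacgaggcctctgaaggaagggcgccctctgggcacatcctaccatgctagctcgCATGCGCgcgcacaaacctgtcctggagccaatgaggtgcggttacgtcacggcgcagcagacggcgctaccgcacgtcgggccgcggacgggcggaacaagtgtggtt
Uqcrc1 promoter: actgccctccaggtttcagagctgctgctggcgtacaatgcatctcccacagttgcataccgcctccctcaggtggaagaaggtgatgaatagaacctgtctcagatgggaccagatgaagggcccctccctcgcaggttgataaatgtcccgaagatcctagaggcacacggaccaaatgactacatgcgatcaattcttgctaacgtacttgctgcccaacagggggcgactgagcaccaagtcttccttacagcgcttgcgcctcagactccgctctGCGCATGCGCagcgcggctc
Sdhb promoter: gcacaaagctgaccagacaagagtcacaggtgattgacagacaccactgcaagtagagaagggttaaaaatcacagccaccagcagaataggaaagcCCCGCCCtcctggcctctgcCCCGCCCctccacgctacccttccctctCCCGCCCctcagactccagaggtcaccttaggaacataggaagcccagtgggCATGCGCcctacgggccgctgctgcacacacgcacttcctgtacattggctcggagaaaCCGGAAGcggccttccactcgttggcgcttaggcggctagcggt

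The ETS letters also stood in 7 of 32 genes (21.9%), beside 16.9% of promoters with a start in a peak. Those of YY1 stood in 4 (12.5%), beside 4.17%. SP letters were in 10 (31.3%), a smaller share than the 45.0% of promoters with a start in a peak. The ERR letters were in Sdhd alone (3.13%), beside 3.15% of promoters with a start in a peak. A MEF2 match was in 0 of the 32 genes, beside 0.686%. A match describes letters in a window and says nothing on binding. The next 3 windows belong to the genes with the lowest and the highest difference at the start, Ndufs7 and Ndufb5, and to the heart isoform gene Cox7a1. Ndufs7 (chr10:80249199-80249498) holds a YY1 match in capitals, while Ndufb5 (chr3:32736813-32737112) and Cox7a1 (chr7:30183921-30184220) hold none of the 6 motifs. All are on the plus strand.
Ndufs7 promoter: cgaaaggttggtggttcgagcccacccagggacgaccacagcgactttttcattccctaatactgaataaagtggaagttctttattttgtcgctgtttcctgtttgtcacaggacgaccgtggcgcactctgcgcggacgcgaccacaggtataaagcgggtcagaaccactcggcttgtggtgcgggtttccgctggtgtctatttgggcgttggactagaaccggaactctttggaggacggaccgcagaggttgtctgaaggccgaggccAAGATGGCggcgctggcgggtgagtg
Ndufb5 promoter: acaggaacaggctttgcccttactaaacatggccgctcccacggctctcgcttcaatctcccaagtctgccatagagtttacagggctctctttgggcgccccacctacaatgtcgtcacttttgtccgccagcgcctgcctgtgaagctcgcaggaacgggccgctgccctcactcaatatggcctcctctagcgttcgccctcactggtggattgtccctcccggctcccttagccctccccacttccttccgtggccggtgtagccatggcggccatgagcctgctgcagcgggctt
Cox7a1 promoter: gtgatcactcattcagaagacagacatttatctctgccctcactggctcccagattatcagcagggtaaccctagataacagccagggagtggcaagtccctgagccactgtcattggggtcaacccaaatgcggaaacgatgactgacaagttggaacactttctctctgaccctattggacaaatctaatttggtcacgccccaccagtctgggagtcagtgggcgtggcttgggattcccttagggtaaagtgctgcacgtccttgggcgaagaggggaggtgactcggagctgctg

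Every one of the 43 genes had its transcription start covered by exactly 1 H3K27Ac peak. The centre of 9 of them was nearest to the member and lay in its promoter window. In 38 of 43 the centre lay downstream of the nearest start, and in 31 by more than 100 bp. The median shift was 241 bp downstream, beside 178 bp over the 12022 peaks that cover a start of any gene. Of those 12022 peaks, 37.3% had their centre in the window. The 64 peaks thus fell into 9 promoter window peaks, 29 other peaks that cover a start, and 26 distal peaks that cover none.

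Neighbouring genes share some of these peaks. The start peaks of Ndufa1, Ndufs1, Uqcrh, Atp5a1 and Ndufb9 had their centre nearest to a start of Rnf113a1, Eef1b2, Lrrc41, Haus1 and Tatdn1, in that order. The first 4 of these genes had no peak by the nearest-start rule, and Ndufb9 had only distal ones. The start peaks of Ndufa5 and Ndufa8, though nearest to the member, also reach over a start of Asb15 and of Morn5. How many more member peaks cover a second gene's start was not counted. The signal in a peak over 2 starts cannot be divided between the 2 genes. Start-covering peaks were used below to give 1 value for each of the 43 genes.

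The genes were strongly acetylated in control ventricles. Reads per kb of peak were used to compare levels between genes, since peaks differ in width. The median was 142 normalized reads per kb in control, against 62.3 over all start-covering peaks. In that ranking the median gene stood at percentile 91.2, and 25 of 43 (58.1%) stood at or above percentile 90. The highest control levels per kb belonged to Cyc1 (268), Cox6c (264), Uqcrc2 (243), Sdhc (242) and Cox5a (239). These encode cytochrome c1, a small complex IV subunit, a complex III core protein, a membrane anchor of complex II and a complex IV subunit. Ndufa1, a small X-linked complex I gene, was the only member below the median, at 32.6 reads per kb and percentile 21.7.

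**Figure D1:**
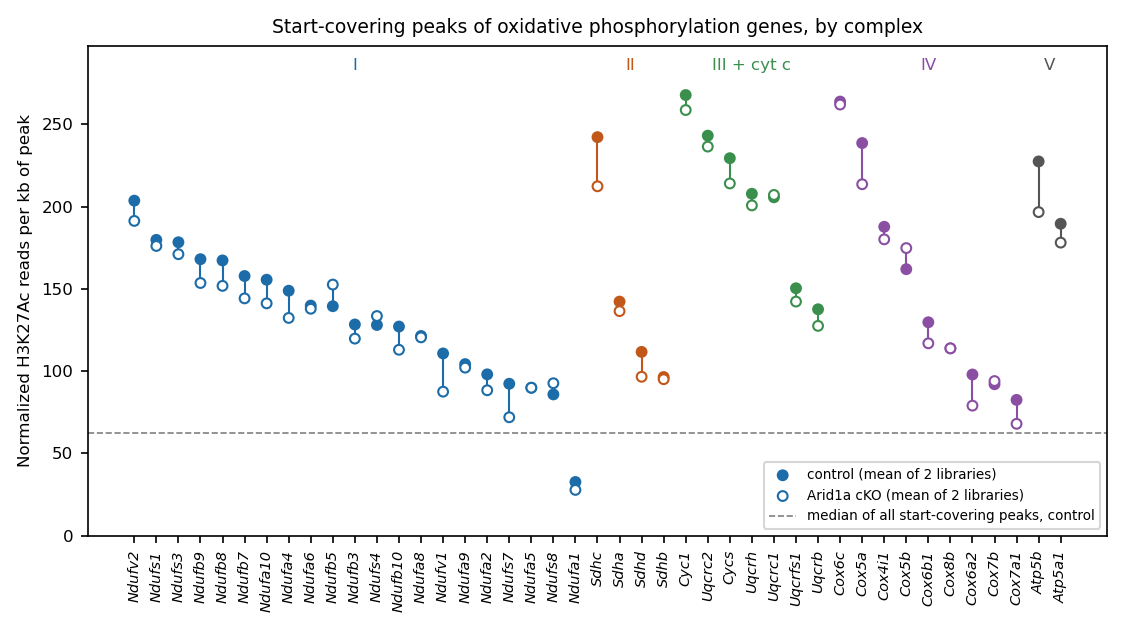
Authors' group means at the 43 start-covering peaks, in normalized H3K27Ac reads per kb of peak, for control (filled) and Arid1a cKO (open), grouped by complex and ordered by the control level. All genes but Ndufa1 lie above the median of all start-covering peaks in control (62.3), and the 2 groups lie close together at most genes.

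In Arid1a cKO the start peaks were lower at most members by a small amount. The difference was below 0 at 35 of 43 peaks, above 0 at 6 and exactly 0 at 2. Its median was -0.09 on the log2 scale, an Arid1a cKO mean of 0.94 times the control mean. Over all start-covering peaks the median was 0.01, and 48.0% lay below 0. The interquartile range of members ran from -0.16 to -0.02, and that of all start-covering peaks ran from -0.14 to 0.17. Of the members, 15 lay at or below the lower quartile of all start-covering differences and 0 at or above the upper quartile. The size of the difference was at most 0.2 at 36 of 43 members, beside 61.1% of all start-covering peaks. The library scaling behind the means is not given in the sources used here, so these small differences are read only beside those of other peaks.

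No member start was past the 2-fold limit, with differences between -0.36 and 0.13. Over all start-covering peaks 1.7% were at least 2-fold lower and 1.16% at least 2-fold higher. A 1.5-fold limit also left 0 of 43, beside 4.18% lower and 4.43% higher. By the centre rule, the 9 promoter window peaks had a median of -0.14, with 8 below 0. The 4549 promoter window peaks of all genes had a median of 0.01 and 46.0% below 0. Of the 9 members 0 were past the limit, beside 1.78% lower and 1.36% higher in that class.

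The members were also compared with start-covering peaks of like total reads, which does not match them on reads per kb. In the middle range of the members' overall concentration, from 257 to 498 normalized reads, the median over 2274 start-covering peaks was -0.03 and 57.3% lay below 0. The 23 members in that range had a median of -0.08, with 19 below 0 (82.6%). In control these members had a median of 149 reads per kb, beside 106 over the 2274 peaks. Their median width was 2236 bp, beside 3270.5 bp, so the 2 sets still differed in level per kb. Cytosolic ribosomal protein genes, another housekeeping group, had a median of -0.02 over 80 start peaks, with 57.5% below 0. Mitochondrial ribosomal protein genes had a median of 0.02 over 78 start peaks, with 38.5% below 0.

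Complex I takes electrons from NADH. Its 21 start peaks had a median difference of -0.10, with 17 below 0. The lowest was Ndufs7, which encodes a subunit of the module that reduces ubiquinone and carries an iron-sulphur cluster. It fell from 446 normalized reads in control to 347 in Arid1a cKO, a difference of -0.36. This peak reaches over chr10:80248884-80253712, and its centre lies 1.85 kb inside the gene in an intron. Ndufv1, which encodes the NADH-binding flavoprotein, stood at 260 reads in control and 205 in Arid1a cKO (-0.34).

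The other core subunits of complex I differed less. Ndufv2 and Ndufs1, partners of Ndufv1 in NADH oxidation, had differences of -0.09 and -0.03. Ndufs3, a core subunit of the ubiquinone module, had -0.06. Ndufs8, an iron-sulphur protein of the same module as Ndufs7, was higher in Arid1a cKO (234 and 252 reads, 0.11). Over these 6 core genes the median was -0.075, and 5 were below 0.

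Genes for the accessory NDUFB subunits of the membrane arm had a median of -0.13 over 6 peaks, with 5 below 0. The exception was Ndufb5, the highest of complex I, with 385 reads in control and 422 in Arid1a cKO (0.13). The remaining 5, Ndufb3, Ndufb7, Ndufb8, Ndufb9 and Ndufb10, lay between -0.17 and -0.10. The 8 NDUFA genes had a median of -0.085, with 7 below 0 and Ndufa5 at 0. Ndufa1 was lowest among them at -0.23, from 54.9 reads in control. Ndufa4, named for complex I though its product is now placed in complex IV, had 405 and 360 reads (-0.17). Ndufs4, an accessory subunit needed for a stable complex I, was slightly higher at its start (212 and 221 reads, 0.06).

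Complex II links the citric acid cycle to the chain and is encoded by 4 nuclear genes. All 4 start peaks were below 0, with a median of -0.125. The lowest were the membrane anchors Sdhd (461 and 399 reads, -0.21) and Sdhc (516 and 452 reads, -0.19). The catalytic flavoprotein gene Sdha stood at -0.06. Sdhb, for the iron-sulphur subunit, was the highest at -0.02 (461 and 455 reads).

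Complex III passes electrons from ubiquinol to cytochrome c. Of its 7 start peaks, cytochrome c included, 6 were below 0, with a narrow range. The lowest was Uqcrb, a small subunit near the ubiquinone site (300.2 and 278 reads, -0.11). Cycs, the cytochrome c gene whose promoter is printed above, stood at 534 and 498 reads (-0.10). The Rieske protein gene Uqcrfs1, Cyc1, the hinge protein gene Uqcrh and Uqcrc2 lay between -0.08 and -0.04. Uqcrc1, for the other core protein, had the highest difference at 0.01 (352 and 355 reads). The median of the 7 was -0.05.

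Complex IV reduces oxygen. Its 9 start peaks had a median of -0.06, with 6 below 0, 2 above and 1 at 0. The lowest were 2 genes for isoforms of heart and skeletal muscle. Cox6a2 had 383 reads in control and 309 in Arid1a cKO (-0.31), in a peak 3908 bp wide at chr7:128204462-128208369. Cox7a1 had 137 and 113 reads (-0.28). Cox8b, the third muscle isoform gene, had 340 reads in both groups. Their ubiquitous counterparts did not follow 1 order, since Cox6a1 stood at 0.01, Cox7a2 at -0.25 and Cox8a at -0.12.

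Among the other complex IV genes, Cox5a, for a nuclear subunit facing the matrix, had 690 reads in control and 617 in Arid1a cKO (-0.16). Cox6c differed by -0.01, with 498 and 495 reads. Cox6b1 stood at -0.15 and Cox4i1 at -0.06. Cox7b (0.03) and Cox5b (352 and 380 reads, 0.11) were above 0, and Cox5b was the highest of the complex. Both complex V genes among the members were below 0. Other genes of this complex, read further below in a second list, differed in sign. Atp5b, for the catalytic beta subunit, had the highest total signal of all member starts in control, with 843 reads, and 729 in Arid1a cKO (-0.21). Atp5a1, for the alpha subunit, had 699 and 657 reads (-0.09).

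**Figure D2:**
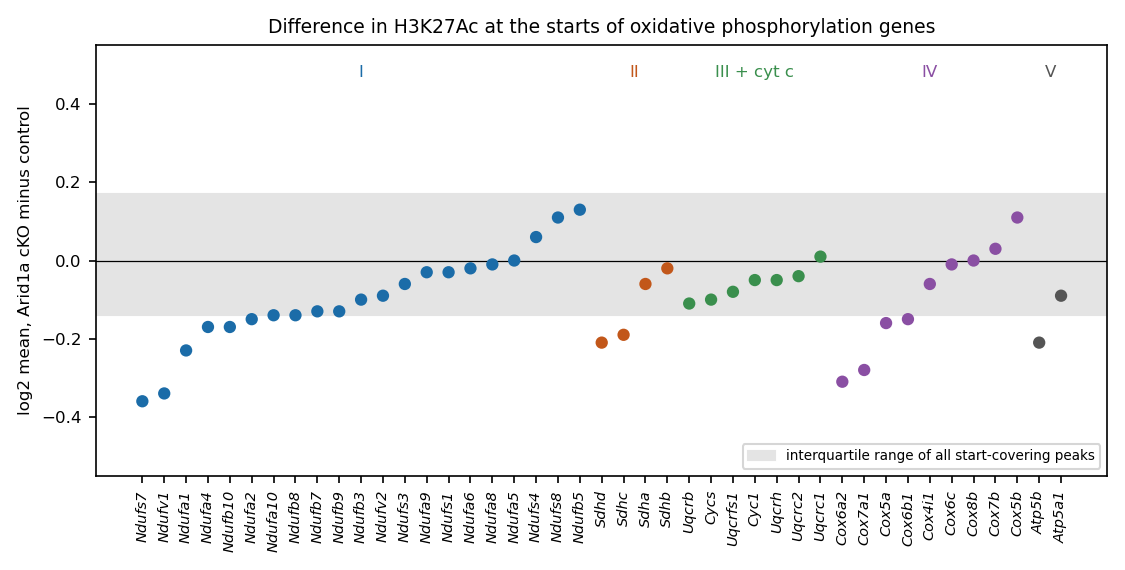
Difference of the authors' group means, Arid1a cKO minus control on the log2 scale, at the start-covering peak of each of the 43 genes, ordered within each complex. The points run from -0.36 (Ndufs7) to 0.13 (Ndufb5), and the shaded band is the interquartile range of all 12022 start-covering peaks, -0.14 to 0.17.

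The 26 distal peaks belonged to 12 genes of complexes I, II and IV. They varied far more than the start peaks, from -1.5 to 3.46. Their median was 0.04, with 11 below 0 and 15 above. At least 2-fold lower in Arid1a cKO were 5 of 26 (19.2%), beside 13.8% of the 33958 peaks of all genes that cover no start. At least 2-fold higher was 1 of 26 (3.85%), beside 5.78%. Counted over all 55 member peaks outside the promoter window, the same 5 (9.09%) were lower and the same 1 (1.82%) higher. Of the 41431 peaks of that class, 11.6% were lower and 4.93% higher. The member shares were below these, but the 2 sets differ in make-up. A start was covered by 29 of the 55 member peaks, of which 0 were past the limit, and by no more than 12022 of the 41431. The 5 lower peaks became 3 when only peaks within 50 kb of the start were kept, and 9 when only protein-coding starts were used. The nearest start is a rule of position and does not show which gene a distal peak acts on.

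The peak with the lowest difference was nearest to Ndufs4, with its centre in an exon of the gene, at chr13:114287582-114289556 and 99.5 kb from the start. It had 93.7 reads in control and 33.1 in Arid1a cKO, 2.83-fold lower (-1.5). The start peak of Ndufs4 had a difference of 0.06. A peak 17.6 kb from the start of Ndufb5, in intergenic sequence at chr3:32753568-32755825, had 88.6 and 36.5 reads (-1.28). The start peak of Ndufb5 was the one with the highest difference of all members.

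The strongest distal peak nearest to a member was 8619 bp wide and lay in an intron of Tecr, 10.5 kb from the start of Ndufb7, at chr8:83572948-83581566. It had 843 reads in control and 350 in Arid1a cKO, a difference of -1.27. The start peak of Ndufb7 differed by -0.13. A smaller peak in an intron of Ndufb7 itself, 2.1 kb from the start, stood at 15.3 and 17.5 reads.

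Of 5 peaks that were nearest to Ndufb9 and lay in introns of Mtss1, 1 was past the limit, with 144 and 68.1 reads (-1.08) at 61.2 kb. The others had differences of -0.80, -0.03, 0.03 and 0.05, and the widest of them held 523 and 534 reads. In Cox5a, a weak peak in an intron 3.12 kb from the start had 12.2 and 4.72 reads (-1.37). The 1 peak past the limit in the other direction lay in an intron of Sdhb, 10.4 kb from the start. It had 0.946 reads in control, under the floor of 3 normalized reads, and 10.4 in Arid1a cKO, so it was at least 3.47-fold higher. That last pair rests on few reads.

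The other distal peaks stayed within the limit. All 3 distal peaks near Cox4i1 were above 0, at 0.31, 0.51 and 0.63, and the widest of them had 288 reads in control and 357 in Arid1a cKO. Both distal peaks near Ndufa6, also above 0, differed by 0.03 and 0.19. Of 4 near Ndufa8, the 2 intergenic ones were higher (0.43 and 0.49) and the 2 in its introns lower (-0.36 and -0.26). A peak 40.8 kb from the start of Ndufa9 had 30.9 and 54.9 reads (0.83). The 3 near Cox6c differed by -0.53, 0.32 and 0.55, and the 2 near Ndufv1, both weak, by -0.37 and 0.27.

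**Figure D3:**
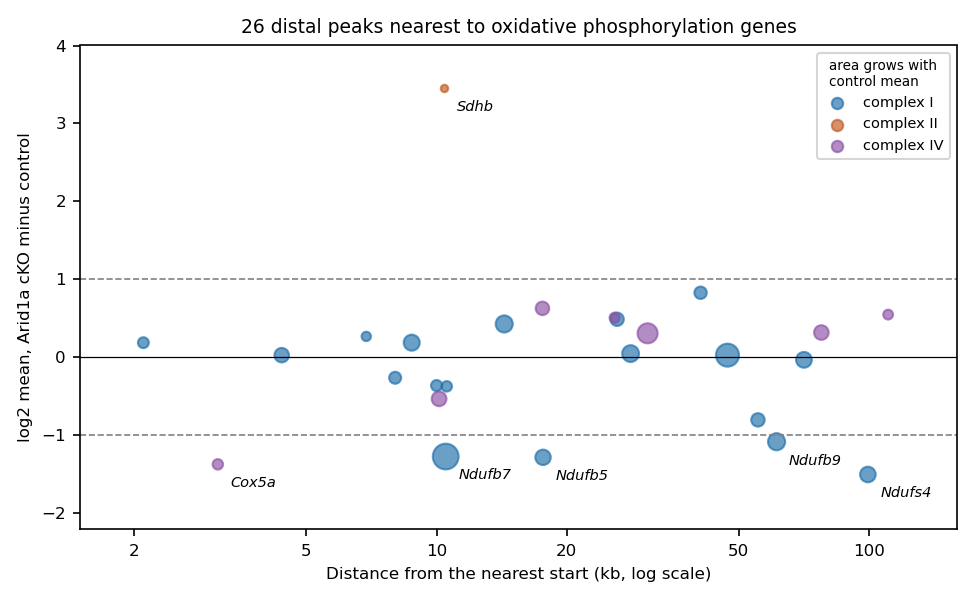
Difference of the authors' group means at the 26 distal peaks, Arid1a cKO minus control on the log2 scale, against the distance of the peak centre from the nearest start in kb on a log axis, with the circle growing with the control mean. Dashed lines mark the 2-fold limit, and the 6 named peaks past it are 5 lower ones and the weak Sdhb peak at 3.46.

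The central 300 bp of the distal peaks were searched for the same letters and set beside those of all 45980 peaks. That background includes the 12022 peaks that cover a start, so it is not a set of distal peaks alone. The ERR letters stood in 4 of 26 (15.4%), beside 7.04%, and the ETS letters in 1 (3.85%), the smaller peak near Ndufb7, beside 4.54%. Matches to NRF1, YY1 and SP were in 0 of 26, beside 1.77%, 1.91% and 10.5%. The MEF2 motif, bound by a factor of muscle genes, stood in 1 of 26, beside 1.64%. That was the Ndufs4 peak, which holds both an ERR and a MEF2 match. The central windows of the 4 peaks past the limit with at least 88.6 reads in control, all nearest to complex I genes, are printed with matches in capitals. They are chr8:83577107-83577406, chr15:58994836-58995135, chr13:114288419-114288718 and chr3:32754546-32754845, all given on the plus strand. The windows of Ndufb7, Ndufb9 and Ndufb5 hold no match.
Ndufb7 distal: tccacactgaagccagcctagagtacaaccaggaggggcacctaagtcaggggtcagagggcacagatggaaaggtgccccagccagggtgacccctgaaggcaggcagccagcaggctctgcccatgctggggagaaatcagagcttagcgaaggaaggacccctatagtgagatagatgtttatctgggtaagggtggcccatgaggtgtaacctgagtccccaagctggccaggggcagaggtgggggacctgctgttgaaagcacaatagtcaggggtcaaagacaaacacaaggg
Ndufb9 distal: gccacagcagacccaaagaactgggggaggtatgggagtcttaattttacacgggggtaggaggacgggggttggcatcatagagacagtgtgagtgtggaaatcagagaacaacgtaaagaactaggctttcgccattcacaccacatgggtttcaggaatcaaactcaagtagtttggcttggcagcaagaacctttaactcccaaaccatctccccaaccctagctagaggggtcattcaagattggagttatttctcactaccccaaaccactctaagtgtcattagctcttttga
Ndufs4 distal: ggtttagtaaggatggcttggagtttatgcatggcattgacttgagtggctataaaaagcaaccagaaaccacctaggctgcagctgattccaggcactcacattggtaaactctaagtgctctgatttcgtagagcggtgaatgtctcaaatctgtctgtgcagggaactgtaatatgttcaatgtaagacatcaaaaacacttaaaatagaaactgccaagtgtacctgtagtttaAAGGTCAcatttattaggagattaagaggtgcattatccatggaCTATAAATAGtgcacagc
Ndufb5 distal: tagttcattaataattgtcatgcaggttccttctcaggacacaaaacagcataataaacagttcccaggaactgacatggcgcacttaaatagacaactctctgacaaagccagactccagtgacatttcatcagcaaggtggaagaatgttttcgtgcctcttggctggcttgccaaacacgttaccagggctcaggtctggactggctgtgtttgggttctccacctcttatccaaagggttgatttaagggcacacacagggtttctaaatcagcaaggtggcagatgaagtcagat

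The remaining subunits of the same complexes were read as a second list. Of 39 genes, 38 had a start-covering peak and Cox6b2 had none. Their median difference was -0.12, with 25 below 0, 12 above and 1 at 0, and 0 past the limit. They ran from -0.28 at Ndufa11 to 0.24 at Cox7a2l. Of the 13 complex V genes in this list, 9 were below 0, 3 above and 1 at 0. The lowest were Atp5o (-0.25), Atp5j (-0.21) and Atp5g3 (-0.21), and the 3 above 0 were Atp5g2 (0.13), Atp5e (0.03) and Atp5c1 (0.01).

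Assembly factors build the complexes but are not part of them. Their 41 start peaks had a median of 0.04, close to the 0.01 over all start-covering peaks, with 14 below 0 and 25 above. The lowest was Cox16 (167 and 115 reads, -0.54), for a complex IV assembly factor, and the highest Ndufaf6 (48.8 and 66.3 reads, 0.44), for a complex I assembly factor. None was past the 2-fold limit. Their control level was lower than that of the subunits, with a median of 76.6 reads per kb beside 132 for the other subunits and 142 for the 43 members.

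Genes for regulators of the pathway had the lowest median among these lists, -0.24 over 17 start peaks of 13 genes, with 13 below 0. The main start peak of Ppargc1a, the gene of the coactivator PGC-1 alpha, had 1287 reads in control and 982 in Arid1a cKO (-0.39). Ppargc1b (-0.27), Perm1 (-0.25) and Esrra (-0.24) were also below 0. Perm1 encodes a muscle regulator of oxidative genes and Esrra the receptor ERR alpha. The only start peak past the limit was one of Esrrb, with 174 and 60.5 reads (-1.52). Esrrg had 3 start peaks that differed in sign (0.28, -0.38 and -0.84). Nrf1 (0.08), Pprc1 (0.23) and Tfam (0.27), the last for the mitochondrial transcription factor, were above 0. Gabpa shared its start peak with the subunit gene Atp5j.

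Of the 38 distal peaks nearest to regulators, 8 were at least 2-fold lower and 2 at least 2-fold higher, beside 13.8% and 5.78% of all peaks that cover no start. Of the 8 lower ones, 4 were nearest to Ppargc1a, between -2.22 and -1.01. The other subunits had 37 distal peaks, with 5 lower and 2 higher, shares close to those of all peaks that cover no start. The lowest of these lay in an intron of Gabpa and was nearest to Atp5j (32.7 and 6.15 reads, -2.41). Assembly factors had 15 distal peaks and 0 past the limit in either direction.

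**Figure D4:**
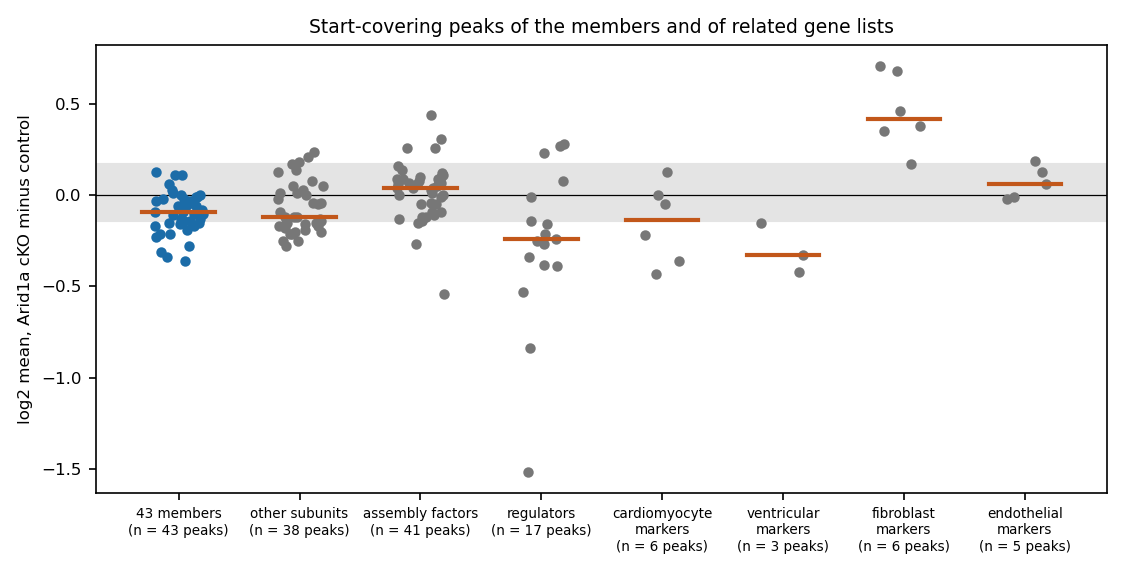
Difference of the authors' group means at start-covering peaks, Arid1a cKO minus control on the log2 scale, for the 43 members, 3 lists of related genes and 4 lists of cell type markers, with 1 point per peak and a bar at the median. Members, other subunits and regulators have medians below 0 (-0.09, -0.12, -0.24), assembly factors are at 0.04, and all 6 fibroblast marker peaks are above 0.

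Cell type markers moved with the same contrast. The tissue label was met by all 6 cardiomyocyte and all 3 ventricular marker genes, with control means of 949 to 3591 reads. Of the 3 atrial markers, Myl7 had 2.45 and 11.4 reads, Nr2f1 had 94.4 and 106 reads and Sln had no start peak. The 4 leukocyte markers had no start peak, and of the hepatocyte markers Alb and Ttr had none. The start of Apoa2 lay in a peak of 125 and 119 reads, whose centre was nearest to a start of Tomm40l. Cardiomyocyte markers had a median of -0.14, with 4 of 6 below 0, and summed reads of 11272 in control and 10579 in Arid1a cKO. That sum includes Myh6, the 1 marker above 0 (3591 and 3929 reads, 0.13). Myh6 encodes alpha myosin heavy chain, whose promoter is in the Cre transgene of the Arid1a cKO group only. Whether transgene copies add reads at Myh6 was not tested. Ventricular markers had a median of -0.33, with 3 of 3 below 0. All 6 fibroblast markers were above 0 with a median of 0.42, and their summed reads were 1565 in control and 2201 in Arid1a cKO. Smooth muscle Acta2 and Tagln were also above 0 (0.89 and 1.09), the latter with only 15.6 and 33.1 reads, and Myh11 had no start peak. The paper describes Acta2 as normally lowered while the heart matures after birth, so it may not mark smooth muscle alone here. The 5 endothelial markers had a median of 0.06. The start peaks of the 43 members summed to 16957 reads in control and 15926 in Arid1a cKO. The part of cell composition in the differences of the members was not tested.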

How the data were processed

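H3K27Ac ChIP-Seq of P7 ventricles was analysed from 2 Control and 2 Arid1a cKO libraries, with 4 inputs used by the authors. Per the submitters' processing notes, the tools were BWA 0.7.17-r1188, HOMER 4.11, DiffBind 2.12.0 and DESeq2 1.24.0, with the mm10 build. Peaks were called against merged inputs and kept if found in at least 2 samples. The authors deposited log2 values per peak, each a normalized read count averaged over a group or over the 4 H3K27Ac libraries. Library scaling and use of the input in these values are not given in the sources used here. The deposited log2 fold change, p-value and FDR of the authors' own comparison were not used, and peak width was taken as deposited. The depth per sample is unknown.

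Differences are Conc of Arid1a cKO minus Conc of Control, printed to 0.01 in the deposited columns. Peaks were placed on GRCm38.p6 with 45756 curated RefSeq transcripts, and 7 of 45987 peaks on unplaced sequences were left out. A group mean of 3 normalized reads was the floor. The members, gene lists and motifs were chosen with earlier results of these data known. Start-covering peaks as a main description, the peaks within 50 kb of a member and the comparison by total reads were added after seeing the data. Named genes were the lowest and highest start peak of each complex, all peaks past 2-fold, the 5 highest control levels per kb, Cox5a, Cox6c, the heart isoforms and their counterparts, and members without a peak. Other genes in the text were chosen with their values known. The alternatives tried changed the promoter window, the distance limit, weak peaks, centring, protein-coding starts and a 1.5-fold limit. The 32 promoter sequences equalled the reference. Steps were tested on simulated data. Python 3.11.15, numpy 2.4.6, pandas 2.3.3 and matplotlib 3.10.9 were used.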

Additional observations from a re-analysis of the deposited data

How the results depend on the processing

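Of 55 alternative values, 45 stayed within the set margin of the value reported, 10 moved and 0 reversed. The median of promoter window peaks (-0.14) became -0.095 with a window of 2000 bp upstream to 500 bp downstream, and -0.09 with all start-covering peaks. That of the other peaks (-0.03) became -0.015 with the wider window and -0.06 with protein-coding starts only. The 5 other peaks at least 2-fold lower became 3 within 50 kb of the start and 9 with protein-coding starts, where peaks next to noncoding genes near Ndufa10 and Ndufb3 were added. The 1 higher peak became 0 without peaks under the lower quartile of concentration, 3 with protein-coding starts and 3 at a 1.5-fold limit. Centred on start-covering peaks of like total reads, the median of member starts (-0.09) became -0.06. No paired analysis was possible because the deposited columns are group means. Leaving out each replicate was not run for the same reason, so whether 1 library decides a value is unknown. Weak peaks such as those of 12.2 reads in Cox5a or 10.4 in Sdhb carry the largest counting error.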

Other observations

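All peaks within 50 kb of a member start that cover no start of any gene were also read, whichever gene lay nearest. There were 87, of which 19 (21.8%) were at least 2-fold lower in Arid1a cKO and 6 (6.90%) at least 2-fold higher, beside 13.8% and 5.78% of all peaks that cover no start. Their median difference was -0.02. The lowest lay near Lmod2, a gene for a sarcomeric actin filament protein, 45.7 kb from the start of Ndufa5. It had 20.7 normalized reads in control and 0.946 in Arid1a cKO, at least 6.89-fold lower against the floor of 3 reads. A peak 14.8 kb from the start of Ndufa5 lay in an intron of Asb15, a muscle gene, and had 309 and 135 reads (-1.19). The Ndufa5 start peak, which also reaches over a start of Asb15, had 204 reads in both groups.

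A peak 35.9 kb from the start of Ndufa10 had 141 reads in control and was 7.06-fold lower in Arid1a cKO (-2.82), and the start peak of Ndufa10 had 317 and 288 reads. A peak 27.4 kb from the start of Cox5a had 34.8 and 2.36 reads, at least 11.6-fold lower, and a peak 23.2 kb from the start of Cox4i1 had 44.0 and 2.36 reads, at least 14.7-fold lower. All 6 higher peaks were weak, with at most 16 reads in control. Many of the lower peaks were weak too, with as few as 11.2 reads in control. Which genes these peaks act on was not tested.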
